A study of Mus musculus with 12 samples.

Results

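The genes described here are 9 genes of muscle glucose uptake and glycogen metabolism, chosen by name: Slc2a4, Hk2, Ugp2, Gys1, Gbe1, Pygm, Phka1, Phkg1 and Ppp1r3a. All 9 were found among the 36008 genes of the expression table, and all 9 passed the filter that left 10481 genes for testing. Their splicing was read from tables of 2 kinds of event, the skipping of an exon and the choice between a mutually exclusive pair of exons. These tables held 5 events of the 9 genes in each muscle, in Phka1, Phkg1 and Slc2a4, among 2423 events in the gastrocnemius and 2416 in the quadriceps.

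RNA was sequenced from 2 hind limb muscles, gastrocnemius and quadriceps, of 6 mice, all female. Of these, 3 were flown on the International Space Station for 9 weeks and 3 were kept on the ground in matched hardware, which gave 12 libraries in 4 groups of 3 (ground and flight gastrocnemius, ground and flight quadriceps). All mice were 30 weeks old at the start and received injections of phosphate-buffered saline. Their strain is BALB/c in the methods of the study but C57BL/6 in the labels. Both muscles came from the left hind limb of carcasses that had been frozen and were thawed for dissection, and each mouse (ground M02, M03 and M08, flight M11, M12 and M20) gave both muscles.

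A muscle fiber takes up glucose through GLUT4, the insulin- and contraction-responsive transporter that Slc2a4 encodes, and Hk2 encodes the hexokinase that phosphorylates it. Ugp2 encodes the enzyme that makes UDP-glucose, from which glycogen synthase (Gys1) builds the chains that the branching enzyme (Gbe1) then branches. Glycogen is broken down by the muscle phosphorylase (Pygm), which phosphorylase kinase switches on. In that kinase Phka1 encodes the regulatory alpha subunit of muscle and Phkg1 the catalytic gamma subunit, and calmodulin is the built-in calcium sensor. Ppp1r3a encodes the muscle subunit that brings protein phosphatase 1 to glycogen, where the phosphatase acts against the kinase.

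Exons whose use was measured in the phosphorylase kinase subunits are shown first. The event with the smallest p (Phka1 exon 19) and listed exon pairs of both subunits are referred to below. Sequences are from the GENCODE vM21 transcripts on GRCm38, written 5′ to 3′ on the transcribed strand. The exon is in capitals, and the 12 bases of the transcript on either side of it are in lower case. Phka1 exon 19 (chrX:102557096-102557272, minus strand, of the 33 exons of Phka1-202) is a coding exon of 177 bases, or 59 whole codons, and 5 of the 6 annotated coding transcripts hold it.
Phka1 exon 19: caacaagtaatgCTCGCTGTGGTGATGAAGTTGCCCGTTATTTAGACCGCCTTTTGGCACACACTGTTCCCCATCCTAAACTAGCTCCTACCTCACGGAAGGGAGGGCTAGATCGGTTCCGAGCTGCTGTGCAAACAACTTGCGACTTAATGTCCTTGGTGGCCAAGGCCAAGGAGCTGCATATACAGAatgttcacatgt
Phka1 exons 28 (chrX:102532077-102532115) and 29 (chrX:102528067-102528117) are coding exons of 39 and 51 bases, both whole numbers of codons. Of the 6 coding transcripts, 4 hold at least 1 of them and 2 hold both.
Phka1 exon 28: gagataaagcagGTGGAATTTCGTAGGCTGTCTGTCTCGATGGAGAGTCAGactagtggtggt
Phka1 exon 29: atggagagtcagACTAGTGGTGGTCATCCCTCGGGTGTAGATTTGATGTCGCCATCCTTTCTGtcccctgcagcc
Phkg1 exons 4 (chr5:129873216-129873270, 55 bases) and 5 (chr5:129869461-129869526, 66 bases) are both coding, and all 3 annotated coding transcripts of the gene hold both of them.
Phkg1 exon 4: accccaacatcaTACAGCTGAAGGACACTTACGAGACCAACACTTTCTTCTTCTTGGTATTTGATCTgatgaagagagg
Phkg1 exon 5: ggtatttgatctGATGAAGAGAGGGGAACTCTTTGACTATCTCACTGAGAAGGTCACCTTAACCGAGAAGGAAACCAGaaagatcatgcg

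The expression values are TPM, transcript abundances that are scaled for transcript length within each library and carry no read depth. The lowest correlation of log2 values between replicate libraries was 0.9504, between ground quadriceps libraries M02 and M08. The muscle identity of the samples was checked on 10 fast fiber genes (such as Myh4, Tnnt3 and Actn3) and 8 slow fiber genes (such as Myh7 and Myl2), all above 0 in every group. The fast fiber genes summed to between 74730 and 119200 TPM per library and the slow fiber genes to between 949 and 2287. By their group means the 9 genes covered a wide range. Pygm was the most abundant, at 1550 to 1828 TPM, Ugp2 and Phkg1 followed at 249 to 482 TPM, and Gbe1 was the least abundant at 24.1 to 32.1 TPM.

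**Figure D1:**
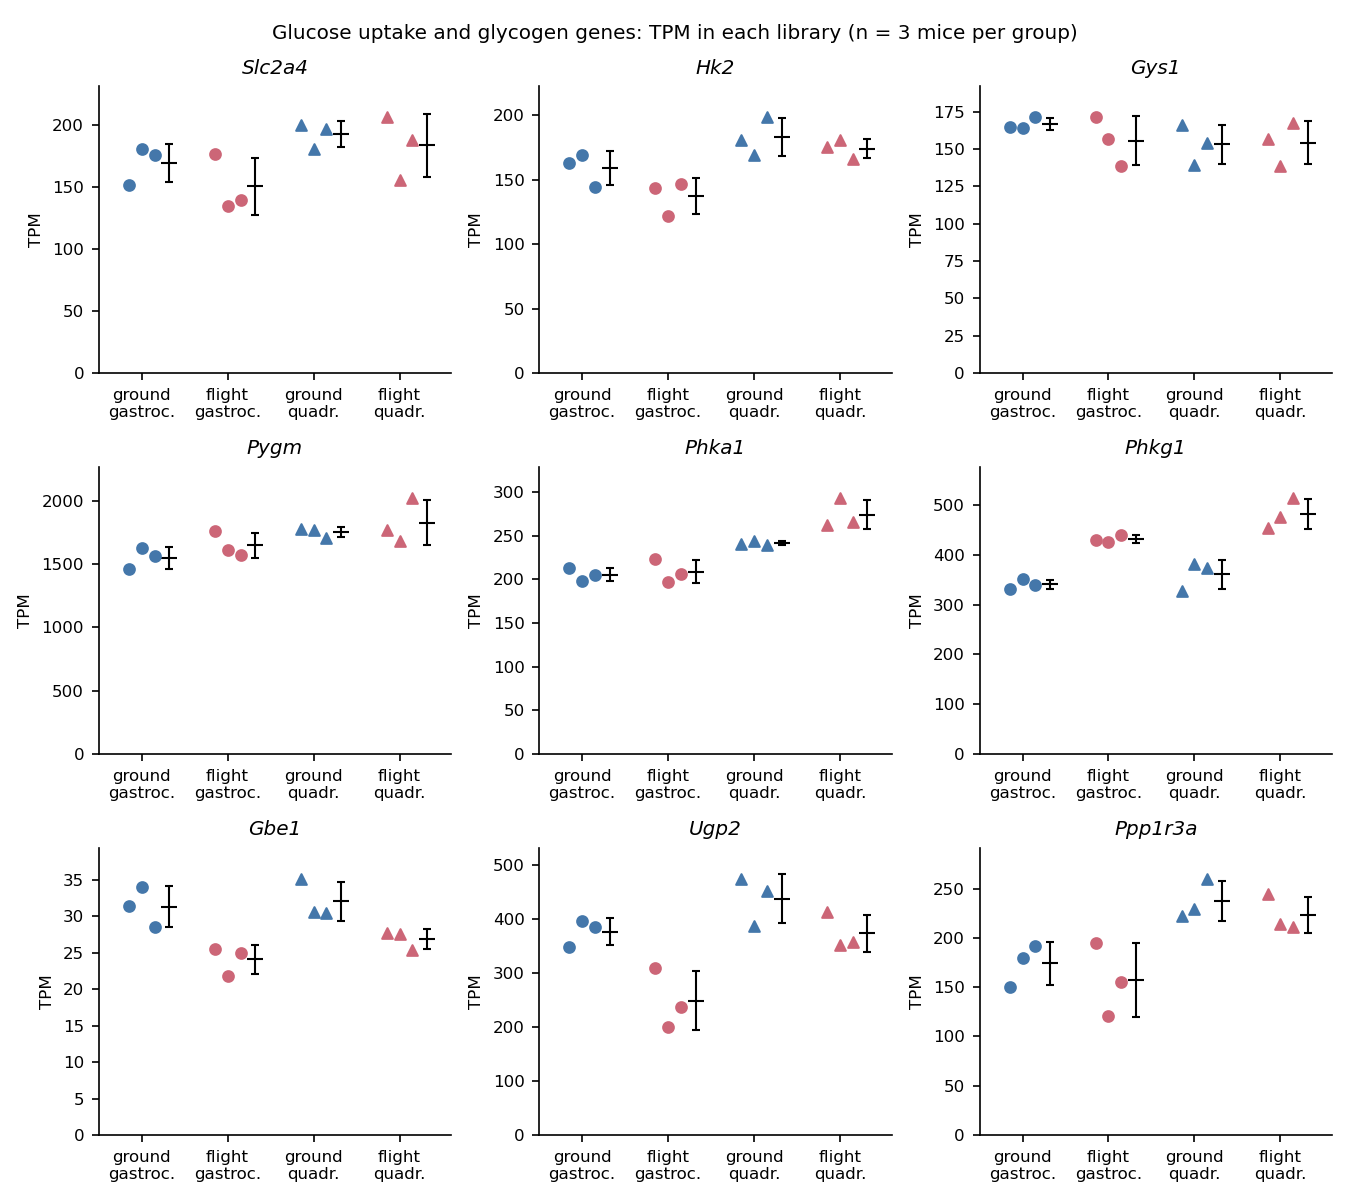
TPM of the 9 genes in each of the 12 libraries (y axis, from 0, with a separate scale for each gene), by group (x axis; circles for gastrocnemius, triangles for quadriceps, blue for ground, red for flight); black marks give the group mean ± SD of 3 mice. The flight points of Phkg1 lie above all ground points of the same muscle, those of Gbe1 below them, and those of Ugp2 below them in the gastrocnemius.

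The first question was which of these genes differed between flight and ground mice in each muscle. None of the 9 passed the test in either muscle (limma on log2(TPM + 1), called at an adjusted p under 0.05 and over 1.5-fold), where 24 genes (0.229%) were called in the gastrocnemius and 3 (0.0286%) in the quadriceps over all genes. At an unadjusted p under 0.05 there were 3 of the 9 in the gastrocnemius, where 15.1% of all tested genes reached that level, and 3 of 9 in the quadriceps, where 10.8% did. The 3 flight and 3 ground values did not overlap for 3 of the 9 in each muscle, against 21.0% and 17.4% of all genes. Phkg1 and Gbe1 were among them in both muscles, Ugp2 in the gastrocnemius and Phka1 in the quadriceps. The median log2 fold change of the 9 was −0.17 in the gastrocnemius and −0.07 in the quadriceps, against 0.02 and 0.01 over all tested genes. In bulk muscle, a lower value can come from fewer cells of a type or from less RNA per cell, and these cannot be told apart.

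For glucose entry, the transporter Slc2a4 (chr11:69942539-69948188) stood at 152, 180.4 and 176 TPM in the ground gastrocnemius (M02, M03, M08) and at 177, 134.5 and 139.5 in the flight gastrocnemius (M11, M12, M20). One flight mouse, M11, was inside the ground range and the other 2 were below it. The difference was −0.18 ± 0.12 (log2 fold change ± SE, n = 3 against 3, limma adjusted p = 0.525). In the quadriceps, Slc2a4 was 199.7, 180.3 and 197 TPM on the ground and 206, 156 and 188 TPM in flight, with the flight values on both sides of the ground values (−0.08 ± 0.11, adjusted p = 0.833).

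Hk2 (chr6:82725025-82774454), the hexokinase of insulin-responsive muscle, was 163, 169.5 and 145 TPM in the ground gastrocnemius and 144, 122 and 147 TPM in flight. Only 1 flight library, M20, reached into the ground range, and the difference was −0.21 ± 0.10 (limma adjusted p = 0.368). Its quadriceps values were 181, 169 and 199 TPM on the ground and 176, 181 and 166 TPM in flight, and they overlapped (−0.07 ± 0.08, adjusted p = 0.783).

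On the synthetic side, Ugp2 (chr11:21321138-21371201) had the largest fold difference of the 9 in the gastrocnemius. It was 349, 396 and 384 TPM on the ground and 309, 200.1 and 237 TPM in flight, so that all 3 flight mice were below all 3 ground mice and M12 was lowest. The means were 376 ± 24.7 and 249 ± 55.2 TPM (SD, n = 3). The log2 fold change was −0.62 ± 0.15 (1.53-fold in the fit, limma adjusted p = 0.16), so Ugp2 was not called. Without flight mouse M11 the log2 fold change was −0.78 with an adjusted p of 0.0282. The calls over all genes then rose from 24 to 133. In the quadriceps Ugp2 was 474, 387 and 452 TPM on the ground and 413, 351 and 357 TPM in flight. Here M11 was above the lowest ground mouse and the difference was smaller (−0.23 ± 0.10, adjusted p = 0.482). The flight effect differed between the muscles by 0.39 ± 0.15 (limma interaction with mouse as a block, adjusted p = 0.957). Over all genes, 5.09% had an unadjusted p under 0.05 for this interaction and 0% were called.

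Gbe1 (chr16:70313949-70569716), the enzyme that adds the branches, was 31.5, 34.1 and 28.5 TPM in the ground gastrocnemius and 25.6, 21.8 and 25.0 TPM in flight. All 3 flight mice were lower, with means of 31.4 ± 2.8 and 24.1 ± 2.0 TPM (−0.36 ± 0.10, limma adjusted p = 0.209). The quadriceps values were 35.2, 30.7 and 30.5 TPM on the ground and 27.8, 27.6 and 25.4 TPM in flight. The flight values again lay below all ground values (−0.24 ± 0.09, adjusted p = 0.436).

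Gys1 (chr7:45434844-45456619), the muscle glycogen synthase, was nearly level across the groups, at 165, 164 and 172 TPM in the ground and 171, 157 and 139 TPM in the flight gastrocnemius. In the quadriceps the values were 166, 139.7 and 154 TPM on the ground and 157, 139 and 168 TPM in flight. The groups overlapped in both muscles, with differences of −0.11 ± 0.09 and 0.01 ± 0.10 (limma adjusted p = 0.618 and 0.978).

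Among the genes of glycogen breakdown, Phkg1 (chr5:129863421-129898549), the catalytic subunit of phosphorylase kinase, had the smallest p of the 9 in both muscles. In the gastrocnemius it was 331, 350.2 and 340.1 TPM on the ground and 429, 426 and 439.9 TPM in flight. The means were 340.3 ± 9.8 and 431 ± 7.5 TPM (SD, n = 3), a gap many times wider than the spread between mice, and the log2 fold change was 0.34 ± 0.06 (1.27-fold, limma adjusted p = 0.107). Its quadriceps values were 327, 381 and 373 TPM on the ground and 454, 476 and 514 TPM in flight. All flight mice were again higher, with means of 360.4 ± 28.8 and 482 ± 30.2 TPM (0.42 ± 0.08, 1.34-fold, adjusted p = 0.274). The adjusted p stayed above 0.05 in each muscle under every alternative setting run, from 0.0595 to 0.393 in the gastrocnemius when 1 library was left out. The flight differences of the 2 muscles were alike in size, with an interaction of 0.08 ± 0.09 (adjusted p = 0.979). In the annotation Phkg1 overlaps 4 other genes, among them Chchd2 on the same strand, which had lower values in flight (−0.65 ± 0.11 in the gastrocnemius, adjusted p = 0.0908). Of the 2639 distinct 31-base stretches of the coding Phkg1 transcripts, 137 also occur in transcripts of other genes, so that a small part of its reads cannot be assigned by sequence alone. Over all Phkg1 transcripts, 404 of 6436 stretches were shared, most often with Atp5g1, Zfp12 and Zc3h7b.

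Phka1 (chrX:102513975-102644246), the regulatory subunit, was 213, 198 and 205 TPM in the ground gastrocnemius and 223, 197 and 207 TPM in flight. These values overlapped (0.02 ± 0.08, limma adjusted p = 0.925). In the quadriceps the ground mice were close together at 240.2, 244 and 239.7 TPM and the flight mice were all higher, at 263, 294 and 266 TPM (0.18 ± 0.07, adjusted p = 0.416). The sign in the gastrocnemius turned to −0.01 when the libraries were rescaled by their median ratio.

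Pygm (chr19:6384399-6398459), the phosphorylase itself, was 1459, 1625 and 1566 TPM in the ground and 1760, 1609 and 1575 TPM in the flight gastrocnemius. In the quadriceps it was 1777, 1772 and 1706 TPM on the ground and 1774, 1684 and 2025 TPM in flight. The differences were 0.09 ± 0.08 and 0.06 ± 0.08 (limma adjusted p = 0.616 and 0.831), and the groups overlapped in both muscles.

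Ppp1r3a (chr6:14713977-14755274), the glycogen-targeting phosphatase subunit, was 150.3, 179.7 and 192 TPM in the ground and 195, 121 and 155 TPM in the flight gastrocnemius, where M11 lay above and M12 below all ground mice. Its quadriceps values were 222, 229 and 259.9 TPM on the ground and 244, 214 and 211 TPM in flight. Neither muscle separated the groups (−0.17 ± 0.17 and −0.09 ± 0.09, limma adjusted p = 0.687 and 0.758).

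**Figure D2:**
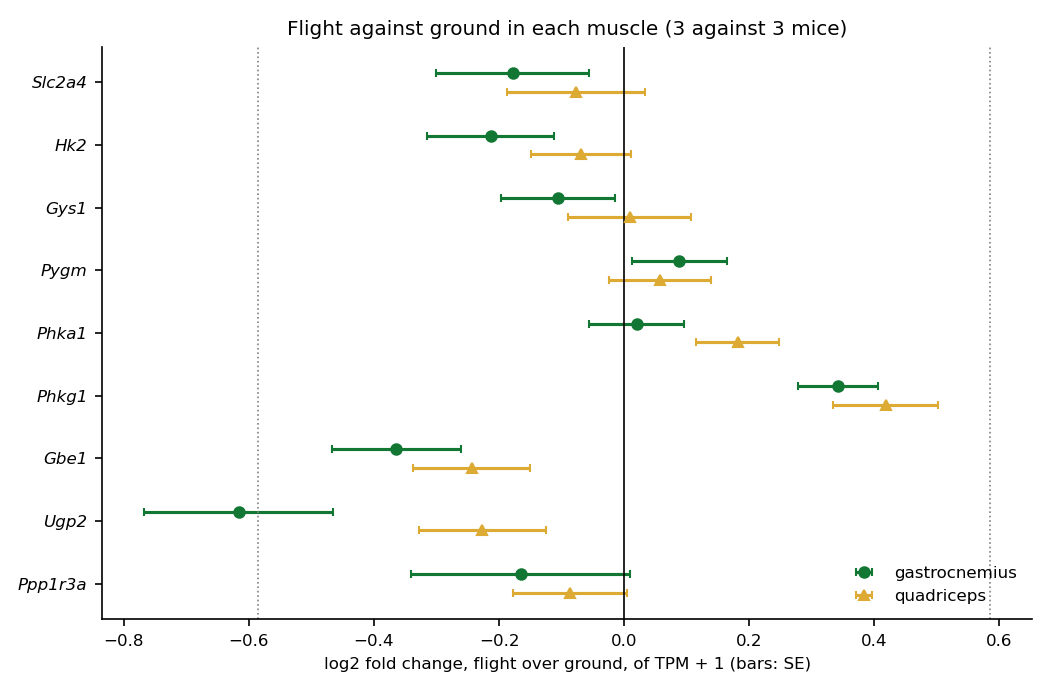
Log2 fold change of flight over ground for the 9 genes (x axis; limma on log2(TPM + 1), bars are SE), in the gastrocnemius (green circles) and the quadriceps (yellow triangles), 3 against 3 mice; dotted lines mark 1.5-fold. Phkg1 lies to the right of 0 in both muscles at 0.34 and 0.42, Gbe1 to the left at −0.36 and −0.24, and Ugp2 farthest left in the gastrocnemius at −0.62.

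Ratios within a library do not depend on its scaling, and those between subunits or steps of the pathway were read as a description. Phkg1 over Phka1 was 1.55, 1.77 and 1.66 in the ground gastrocnemius and 1.92, 2.16 and 2.13 in flight. The quadriceps ratios were 1.36, 1.56 and 1.55 on the ground and 1.73, 1.62 and 1.93 in flight, so that the catalytic subunit was higher relative to the regulatory one in every flight library of both muscles. Ugp2 over Gys1 was 2.11, 2.42 and 2.24 in the ground gastrocnemius and 1.80, 1.28 and 1.71 in flight. Its quadriceps ratios were 2.86, 2.77 and 2.94 on the ground and 2.63, 2.54 and 2.13 in flight, and here too the flight and ground values did not overlap. Gbe1 over Gys1 overlapped in both muscles, at 0.166 to 0.208 and 0.140 to 0.180 in the ground and flight gastrocnemius and at 0.198 to 0.220 and 0.151 to 0.199 in the quadriceps. Pygm over Gys1 did not overlap in the gastrocnemius (8.84 to 9.91 and 10.27 to 11.34) but did in the quadriceps. With the beta subunit Phkb below, the Phkg1 ratio did not overlap in either muscle and the Phka1 ratio overlapped in both. How often ratios of other genes separate was not computed, and single genes did so for 21.0% and 17.4%.

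**Figure D3:**
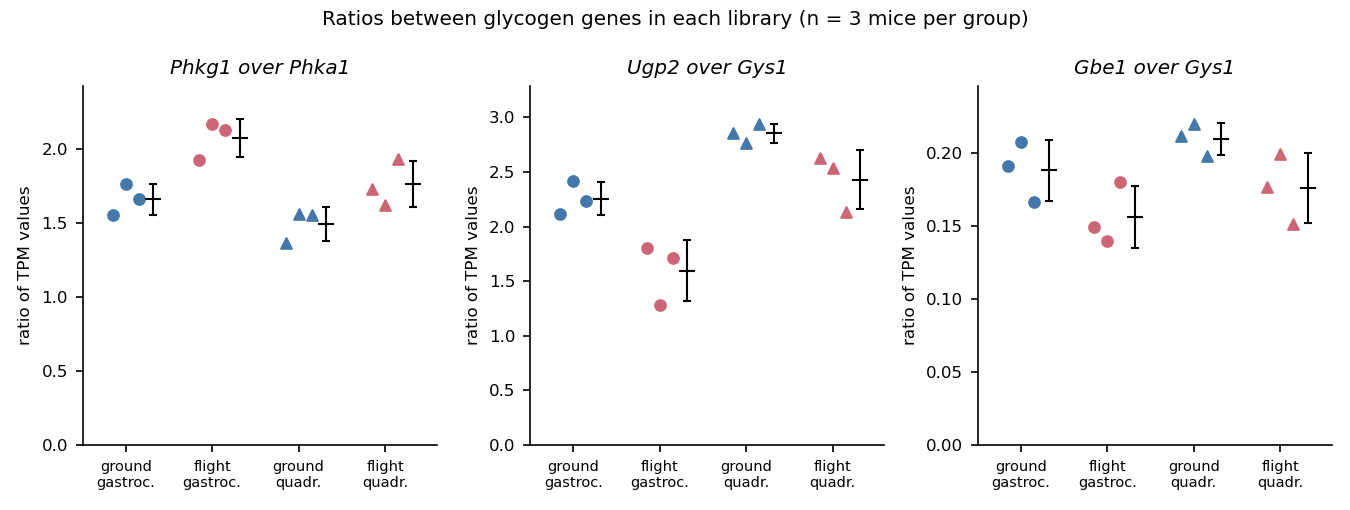
Ratios of the TPM of Phkg1 to Phka1, Ugp2 to Gys1 and Gbe1 to Gys1 (y axis, from 0) in each of the 12 libraries by group (circles for gastrocnemius, triangles for quadriceps, blue for ground, red for flight); black marks give the mean ± SD of 3 mice. Phkg1 over Phka1 averaged 1.66 on the ground and 2.07 in flight in the gastrocnemius, and 1.49 and 1.76 in the quadriceps.

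Other markers moved with flight beside these genes. In the gastrocnemius, 3 of the 8 slow fiber genes were called lower in flight, namely Myl2 at −1.33, Myl3 at −0.90 and Atp2a2 at −0.88 on the log2 scale. The summed slow fiber level was 1809 to 2222 TPM on the ground and 1105 to 1329 TPM in flight, with all 8 genes above 0. The summed fast fiber level was 74730 to 76050 TPM on the ground and 79850 to 83370 TPM in flight, although none of the 10 fast fiber genes was called. At an unadjusted limma p under 0.05, 4 of them were higher and 1 lower, against 15.1% of all tested genes. The lower gene was Myh2 (−0.34 ± 0.10, adjusted p = 0.218). In the quadriceps Myh2 was lower too (−0.36 ± 0.08, adjusted p = 0.298) and Myh4 was higher (0.21 ± 0.09, adjusted p = 0.445). In the quadriceps the slow fiber sum overlapped, at 949 to 2287 TPM on the ground and 1256 to 1730 TPM in flight, and none of the 8 genes was called. The overlap rested on ground mouse M02, at 949 TPM. The median and highest ground libraries, at 2238 and 2287 TPM, lay above all flight libraries. The 7 adipocyte genes there, all above 0, summed to 324 to 601 TPM on the ground and 206 to 286 TPM in flight, with none called. The part of fiber type and of fat in the differences of Phkg1, Ugp2 and Gbe1 was not tested.

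The second question was how the genes differed between the 2 muscles of the same mice, tested with the mouse as a block. Here all tested genes had a median log2 difference of 0.12 in ground mice and 0.11 in flight mice, quadriceps over gastrocnemius, and rescaling by the median ratio moved the median by −0.09 and −0.08. The values below are to be read against that shift. Over all genes, 11.9% passed an adjusted p under 0.05 in ground mice and 3.20% were called with over 1.5-fold. In flight mice these shares were 13.4% and 3.34%.

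In ground mice, 1 of the 9 passed the adjusted p and none was over 1.5-fold. This was Ppp1r3a, which was 150.3, 179.7 and 192 TPM in the gastrocnemius and 222, 229 and 259.9 TPM in the quadriceps of the same mice (0.45 ± 0.10, 1.36-fold, limma adjusted p = 0.0308). It was higher in the quadriceps in 3 of 3 mice, but the adjusted p was 0.0839 after rescaling, 0.0799 without the mouse block, and between 0.0901 and 0.138 when M02, M03 or M08 was left out. The other 8 lay between −0.13 (Gys1) and 0.23 (Phka1) in log2, and the median of all 9 was 0.18. The 7 adipocyte genes moved with the muscle in ground mice, at a sum of 182 to 263 TPM in the gastrocnemius and 324 to 601 TPM in the quadriceps, with 4 of the 6 tested called higher. Their part in the difference of Ppp1r3a was not tested. After rescaling, Phkg1 turned from 0.08 to −0.02 and Gbe1 from 0.03 to −0.06.

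In flight mice, 3 of the 9 passed the adjusted p, all higher in the quadriceps, and 1 of them was called. Of the 1403 genes that passed over all genes, 1213 were higher there. Ugp2 was 309, 200.1 and 237 TPM in the flight gastrocnemius against 413, 351 and 357 TPM in the quadriceps of the same mice (0.60 ± 0.11, 1.52-fold, limma adjusted p = 0.0133), higher in 3 of 3 mice. Ppp1r3a differed by 0.53 ± 0.10 (adjusted p = 0.0161) and Phka1 by 0.39 ± 0.08 (adjusted p = 0.0202), both in 3 of 3 mice. Leaving out M12 or M20 took each of the 3 past the threshold, to between 0.0554 and 0.115, and after rescaling Phka1 was 0.30 with an adjusted p of 0.073. Ugp2 was 0.52 after rescaling (adjusted p = 0.0289), under 1.5-fold and so not called. Hk2 followed at 0.35 ± 0.11 (adjusted p = 0.0705) and Slc2a4 at 0.29 ± 0.09 (adjusted p = 0.0756), while Gys1 was at −0.01 ± 0.10. The summed level of 5 nerve genes moved with the muscle as well, at 114 to 252 TPM in the gastrocnemius and 41.5 to 70.4 TPM in the quadriceps. The fast fiber sum did so too, at 74730 to 83370 TPM and 105000 to 119200 TPM. Of its 10 genes, 8 passed the adjusted p as higher in the quadriceps in ground mice, and 8 in flight mice. Over all genes, 11.9% and 13.4% passed in either direction. Myh1 and Myh2 went the other way, at −0.25 and −0.24 in ground mice and −0.35 and −0.26 in flight mice. Of these, only Myh1 in flight mice passed (limma adjusted p = 0.0433). The part of the nerve and fast fiber genes in these differences was not tested.

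Put in order of their 4 group means, 4 of the 9 genes (Slc2a4, Hk2, Gys1 and Pygm) had no step between neighbouring groups that was wider than the SDs. Ugp2 had 1 such step, from the flight quadriceps down to the flight gastrocnemius. Phkg1 ran from the flight quadriceps through the flight gastrocnemius to the ground quadriceps and the ground gastrocnemius, and only the last step was within the SDs. Phka1 and Ppp1r3a were ordered by muscle, with both quadriceps groups above both gastrocnemius groups, and Gbe1 by flight, with both ground groups above both flight groups.

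The third question was whether the transcripts of these genes were spliced differently in flight. The tables give, for each event and sample, the junction reads for inclusion and for the other form, and the percent spliced in (PSI) is the length-corrected share of inclusion. The 3 samples of a group are listed by position and were not matched to mice. Of the 5 events in each muscle, all passed the filters that kept 2118 gastrocnemius and 2062 quadriceps events, and none was called (quasi-binomial model, adjusted p under 0.05 and over 5 percentage points), against 1.42% and 0.921% of all kept events. At an unadjusted p under 0.05 there were 3 of 5 in the gastrocnemius, the skipped exon (7.95% of all skipped exon events there) and 2 of the 4 exclusive pairs (18.4% of all such pairs). In the quadriceps there were 0 of 5, where the shares over all events were 10.5% and 13.1%. The PSI values of flight and ground did not overlap for 3 of 5 in the gastrocnemius (16.2% of all events) and 1 of 5 in the quadriceps (12.8%).

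The event with the smallest p was the skipping of Phka1 exon 19, the 59-codon exon printed above. Phosphorylase kinase is known in 2 forms of its alpha subunit, of which the one in fast muscle holds this part of the protein and the one in slow muscle and heart lacks it. In the gastrocnemius the PSI of the exon was 55.2%, 66.1% and 67.6% on the ground and 74.7%, 79.1% and 80.7% in flight, from 137 to 214 junction reads a sample. All 3 flight samples were above all 3 ground samples, with means of 63.0% ± 6.8 and 78.2% ± 3.1 (SD, n = 3), a difference of 15.2 percentage points (quasi-binomial adjusted p = 0.148). An exact permutation test gave p = 0.1, the smallest it can give for 3 against 3. In the quadriceps the exon was at 75.2%, 81.8% and 90.9% on the ground and 82.4%, 81.3% and 87.7% in flight, from 167 to 250 reads. The ground samples there spanned the flight samples, and the difference was 1.13 percentage points (quasi-binomial adjusted p = 0.93). The ground gastrocnemius was thus the only one of the 4 groups with all samples under 70%. The slow fiber sum of the gastrocnemius, given above, moved in the same comparison, from a median of 1819 to 1153 TPM. In the ground quadriceps, with the exon at 75.2% to 90.9%, the slow fiber sum had a median of 2238 TPM. The part of the slow fiber genes in the exon 19 difference was not tested. An interaction between flight and muscle did not pass the test (adjusted p = 0.737 over 1858 events kept in both, a test chosen after seeing the values).

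Phkg1 exons 4 and 5 were listed as a mutually exclusive pair, with inclusion read for exon 4. In the gastrocnemius the share of exon 4 was 74.6%, 67.4% and 67.3% on the ground and 62.5%, 56.7% and 63.0% in flight, from 248 to 381 reads. All flight samples were lower, by 9.02 percentage points in the mean (69.8% ± 4.2 and 60.8% ± 3.5, quasi-binomial adjusted p = 0.276). The quadriceps shares were 72.5%, 74.9% and 69.4% on the ground and 74.5%, 72.7% and 64.3% in flight, which overlapped (−1.79 percentage points, adjusted p = 0.891). Since all annotated coding transcripts of Phkg1 hold both exons, and exon 4 is not a whole number of codons, reads from transcripts with both exons may be in both counts. The tables do not separate the junctions, and their part was not tested.

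Phka1 exons 13 (chrX:102592627-102592705, 79 bases) and 14 (chrX:102586077-102586211, 135 bases) were listed in the same way, and all 6 coding transcripts hold both. The share of exon 13 in the gastrocnemius was 27.5%, 29.6% and 29.2% on the ground and 27.0%, 16.4% and 18.4% in flight, from 348 to 460 reads. The 3 flight samples were lower, but 1 of them by less than 1 percentage point from the lowest ground sample (−8.21 percentage points in the mean, quasi-binomial adjusted p = 0.285). The quadriceps values overlapped, at 21.8%, 22.6% and 28.6% on the ground and 20.5%, 20.1% and 25.7% in flight (adjusted p = 0.923). As for Phkg1, reads from transcripts with both exons may be in both counts, and their part was not tested.

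For Phka1 exons 28 and 29, printed above, the share of exon 28 was 38.2%, 29.9% and 22.4% in the ground and 19.4%, 36.6% and 26.2% in the flight gastrocnemius. The quadriceps shares were 31%, 43.6% and 0% on the ground and 24.3%, 27.8% and 17.0% in flight. The 0% rests on 22 reads, in which a count of 0 allows up to 13.6% of the reads, by counting error only. Reads were few, at 22 to 83 a sample over both muscles, and the differences of −2.79 and −1.85 percentage points were within the spread (quasi-binomial adjusted p = 0.851 and 0.666). Of the 4 coding transcripts that hold either exon, 2 hold both. Reads from those 2 may be in both counts, and their part was not tested.

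In Slc2a4, exons 3 (chr11:69946286-69946458, 173 bases) and 4 (chr11:69946069-69946193, 125 bases) were listed as a pair, and 4 of the 5 coding transcripts hold both. The share of exon 3 in the gastrocnemius was 19.5%, 25.1% and 32.7% on the ground and 22.9%, 26.4% and 20.3% in flight (−2.58 percentage points, quasi-binomial adjusted p = 0.8). In the quadriceps it was 29.4%, 32.2% and 19.3% on the ground and 34.7%, 37.2% and 36.7% in flight, from 78 to 177 reads. All flight samples there were higher, with means of 27.0% ± 6.8 and 36.2% ± 1.3, but the difference of 9.24 percentage points did not pass the test (adjusted p = 0.621). The difference between the muscles had an adjusted p of 0.688. The 4 coding transcripts that hold either exon hold both, so reads from them may be in both counts. Their part was not tested.

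**Figure D4:**
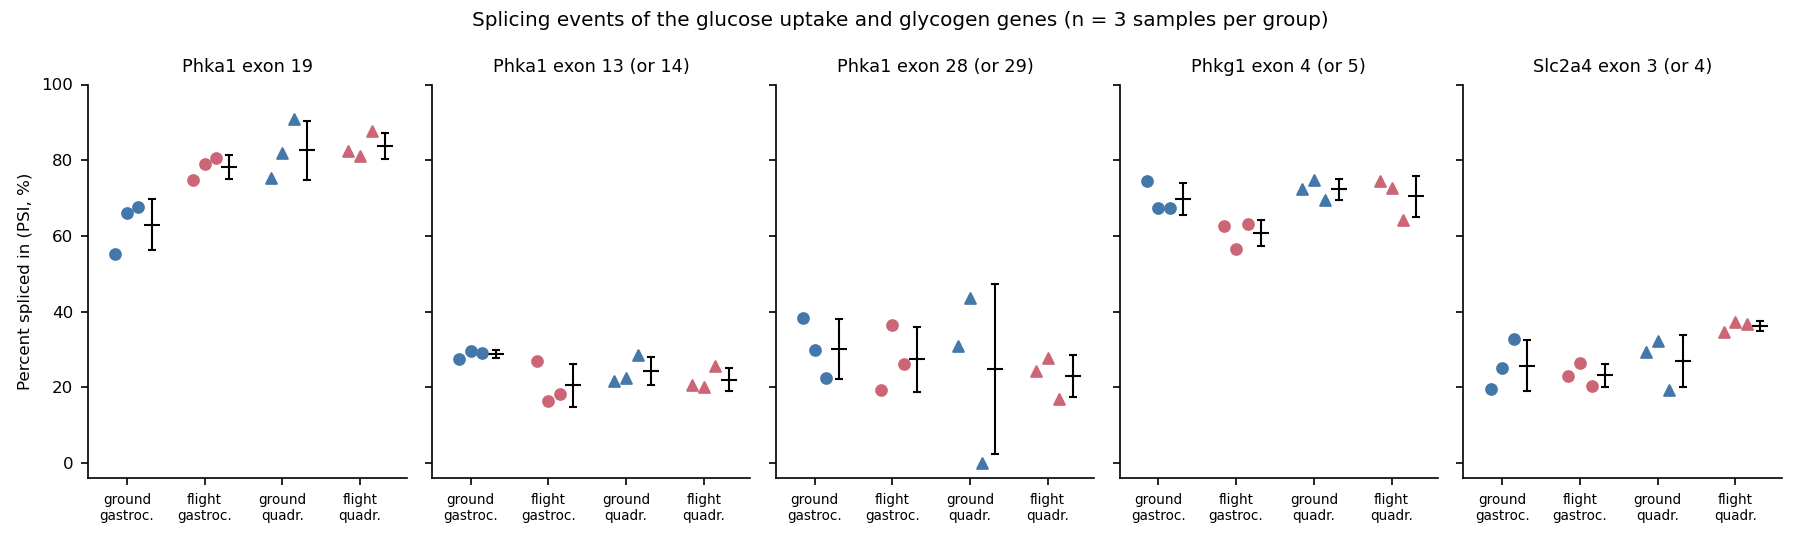
Percent spliced in (y axis, 0 to 100%) of the 5 events in each sample by group (circles for gastrocnemius, triangles for quadriceps, blue for ground, red for flight); black marks give the mean ± SD of 3 samples, and the exon named first is the one counted as included. For Phka1 exon 19 the ground gastrocnemius, at 55.2% to 67.6%, lies below the other 3 groups.

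The rest of the pathway was described by lists of genes around the 9. None of the genes in these lists was called in flight in either muscle. Among other glucose transporters and hexokinases, 3 of 11 were tested, and the smallest p in the gastrocnemius was that of the transporter Slc2a12 (−0.29 ± 0.12, limma adjusted p = 0.314). Of 18 tested genes of GLUT4 vesicle traffic, Rab10, a small GTPase of insulin-stimulated GLUT4 delivery, was at −0.30 ± 0.12 in the gastrocnemius and −0.21 ± 0.08 in the quadriceps (adjusted p = 0.295 and 0.429). Lnpep, the aminopeptidase carried in GLUT4 vesicles, was at −0.18 ± 0.11 and −0.27 ± 0.07 (adjusted p = 0.467 and 0.344).

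Of 7 tested genes of glycogen synthesis, Gyg, which encodes the glycogenin primer of the glycogen particle, had the smallest p in both muscles (−0.34 ± 0.12 and −0.30 ± 0.08, limma adjusted p = 0.275 and 0.344). Of 13 tested genes of glycogen breakdown, 3 were higher and 1 lower at an unadjusted p under 0.05 in the gastrocnemius, and none was in the quadriceps, against 15.1% and 10.8% of all tested genes. The 3 higher genes were Phka2, the alpha subunit of liver phosphorylase kinase (0.46 ± 0.11), and the calmodulin genes Calm3 (0.42 ± 0.12) and Calm2 (0.25 ± 0.09). The lower gene was Gaa, the lysosomal glucosidase of glycogen (−0.29 ± 0.09), and the adjusted p of these 4 ran from 0.157 to 0.284. Of 7 tested protein phosphatase 1 genes, the catalytic subunit Ppp1cc was at −0.40 ± 0.12 in the quadriceps (adjusted p = 0.362).

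Of 24 genes of insulin signalling and AMPK, Prkag3, the AMPK gamma subunit of glycolytic muscle, was at 0.42 ± 0.11 in the gastrocnemius and 0.39 ± 0.15 in the quadriceps (limma adjusted p = 0.183 and 0.43). Of 8 transcription factors that act on Slc2a4, the orphan nuclear receptor Nr4a3 was at 1.20 ± 0.22 in the flight quadriceps (adjusted p = 0.274), and Mef2c and Mef2a were at 0.27 ± 0.10 and 0.21 ± 0.09 in the gastrocnemius (adjusted p = 0.285 and 0.321).

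Between the muscles of ground mice, 4 genes of these lists were called, where 3.20% of all tested genes were. They were 1 of 13 tested genes of glycogen breakdown, 1 of 24 of insulin signalling and AMPK, and 2 of 8 transcription factors. The other lists had none. Calm3 was higher in the quadriceps (0.66 ± 0.09, limma adjusted p = 0.00751). Irs2, an adaptor of the insulin receptor (−0.88 ± 0.12, adjusted p = 0.00857), Nr4a3 (−1.41 ± 0.16, adjusted p = 0.00588) and Nr4a1 (−0.63 ± 0.17, adjusted p = 0.0442) were lower. Among genes of glycogen breakdown, 5 of 13 passed the adjusted p, all higher in the quadriceps, against 11.9% of all genes, of which 1057 of 1249 were higher there. Phkb, the beta subunit of phosphorylase kinase, was among the 5 (0.35 ± 0.08, adjusted p = 0.0343). In flight mice Sort1, a sorting receptor of GLUT4 vesicles (0.60 ± 0.10, adjusted p = 0.0107), and Rab13 (0.67 ± 0.17, adjusted p = 0.0417) were called higher in the quadriceps and Nr4a3 lower (−0.64 ± 0.16, adjusted p = 0.0342). These were 2 of 18 tested genes of GLUT4 vesicle traffic and 1 of 8 transcription factors, where 3.34% of all tested genes were called. Of the splicing events in these lists, 27 gastrocnemius and 24 quadriceps events were kept, and none was called.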

How the data were processed

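RNA was sequenced from polyA libraries. The authors quantified transcripts with kallisto 0.46.0 and deposited gene values as TPM, aligned reads to mm10 with STAR 2.7.1a, counted junction reads with rMATS-turbo, and tested counts with DESeq2 1.26.0. The deposited junction columns are comma-separated lists of whole reads for the 3 samples of a group, with PSI as a fraction. The authors' own p-value, FDR and difference columns were not used. The 9 genes and the pathway and marker lists were chosen with earlier results of these data known.

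Genes with TPM above 5 in at least 1 library were kept. Expression was tested on log2(TPM + 1) with limma 3.58.1 (R 4.3.3, eBayes with trend) within each muscle, and between muscles and for the interaction in 1 fit with mouse as a block. P-values were two-sided, with Benjamini-Hochberg adjustment over all genes. Splicing events entered the test if each group averaged more than 10 junction reads, except those with PSI never above 5% or never below 95%. The planned count test could not read the lists, so inclusion and skipping reads were fitted by a quasi-binomial model with the dispersion moderated by limma. Both fits were checked on simulated data. Named from the lists were genes called in any comparison and those among the 4 smallest p of a list in the flight and ground muscle comparisons. For each of the 9 genes, the gene with the highest Pearson r over the 12 libraries was named. Depth behind TPM is unknown, and the kept events had a median of 35 (gastrocnemius) and 37 (quadriceps) reads per sample. Gene positions, exon numbers and sequences came from GENCODE vM21 (GRCm38).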

Additional observations from a re-analysis of the deposited data

How the results depend on the processing

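No flight against ground result of the 9 genes passed the threshold under any alternative except Ugp2 in the gastrocnemius, as given above. Over 658 values of single genes and events under alternatives, 609 kept their direction and side of the threshold, 18 lost and 2 gained an adjusted p under 0.05, whatever the fold, and 29 changed sign. Those lost were between the muscles, of Ppp1r3a in ground mice and of Ppp1r3a, Phka1 and Ugp2 in flight mice (without the filter on low values, adjusted p = 0.1, 0.0655, 0.0608 and 0.0609), and those gained were Ugp2 in the gastrocnemius without flight mouse M11, and Hk2 between the muscles of flight mice without the mouse block (adjusted p = 0.0364, under 1.5-fold). The cause was not tested. With median ratio rescaling, signs changed for Phka1 in the gastrocnemius (−0.0125), Gys1 in the quadriceps (−0.0144), and Phkg1 (−0.0167) and Gbe1 (−0.0608) between ground muscles. Signs that changed when 1 library was left out were not all of values near 0, such as Ppp1r3a in the gastrocnemius (main value −0.1656). Leaving out 1 mouse or sample gave ranges across 0 for flight against ground of Phka1 (−0.0277 to 0.0617) and Ppp1r3a (−0.335 to 0.0083) in the gastrocnemius and of Slc2a4 (−0.167 to 0.0349), Gys1 (−0.0554 to 0.0841) and Pygm (−0.0191 to 0.114) in the quadriceps. It did so between muscles for Gbe1 in ground mice (−0.028 to 0.1232) and Gys1 in flight mice (−0.1507 to 0.0712), and in the interaction for Gys1 (−0.0254 to 0.1965), Pygm (−0.139 to 0.0364) and Ppp1r3a (−0.065 to 0.1821). For PSI changes, in percentage points, it did so in the gastrocnemius for Slc2a4 exon 3 (−5.714 to 0.872) and Phka1 exon 28 (−7.39 to 1.227), and in the quadriceps for Phka1 exon 19 (−2.573 to 5.241), Phka1 exon 28 (−14.283 to 7.512) and Phkg1 exon 4 (−3.78 to 1.298).

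Counts over all genes moved more. The 24 calls in the gastrocnemius became 4 without the filter, 5 without trend, and 1 to 133 with 1 library left out (133 without flight mouse M11). With no library left out, the alternative settings gave at most 32. The 3 in the quadriceps became 1 with rescaling, without trend or with a pseudocount of 5, and 1 to 4 with 1 library left out. Between the muscles, the 335 calls in ground mice became 77 without the filter, 187 with a pseudocount of 5, and 36 to 335 with 1 mouse left out, and the 350 in flight mice became 200, 216, and 77 to 354. With no mouse left out, the highest counts were 385 in ground mice and 395 in flight mice. The interaction gave 2 without the filter and 0 to 1 with 1 mouse left out. Splicing calls were 8 and 0 with limma on the log2 read ratio, and 9 to 33 and 0 to 7 with 1 sample left out. With all samples kept, the alternative settings gave up to 40 and 21, against 30 and 19 in the main fit. With the replicate number as a block (replicate block), 0 genes were called in either muscle. Deviations of same-numbered ground and flight libraries correlated at −0.18 to 0.111, so the numbers were not taken as pairs. For splicing, no paired analysis was possible because list positions carry no replicate numbers. The planned edgeR fit was not run.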

Other observations

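For each of the 9 genes, the gene whose log2(TPM + 1) followed it most closely over the 12 libraries was read as a description, since the libraries share mice, muscles and scaling. Slc2a4 was closest to Fam8a1 (Pearson r = 0.978), Hk2 to Isg15 (0.962), Gys1 to Smim27 (0.907) and Pygm to Akt2 (0.946), the kinase through which insulin reaches GLUT4 vesicles. Phka1 was closest to Jph1 (0.971), a junctophilin of the triad junction where calcium is released, Phkg1 to Rabgap1l (0.943), Gbe1 to Ckmt2 (0.936), the mitochondrial creatine kinase of muscle, Ugp2 to Gm8730 (0.974) and Ppp1r3a to Zfp120 (0.982). Among the 9 themselves, the most negative correlation was that of Phkg1 with Gbe1 (−0.725).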
